A study of Homo sapiens with 3 samples.

Results

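The apoptosis genes described here are 9 genes of the BCL2 family, the death receptors and the caspases. They were taken by gene identifier from the annotation of an Illumina bead array, which named 16 probes for BBC3, PMAIP1, BIK, BAX, FAS, TNFRSF10B, BCL2L1, MCL1 and CASP6, out of 8661 named genes and 10952 named probes. The arrays held RNA of LNCaP, an established human prostate cancer line from a lymph node metastasis that keeps wild-type p53. Cultures had been exposed over 24 h to ethanol alone, which was the vehicle, or to bufalin, a toad venom steroid that blocks the sodium pump, at 10 or 20 nM. Each condition was measured on 1 array, so differences between conditions stand without replicates and carry neither a standard error nor a p-value. All 3 cultures were of the same line in the same serum-containing medium, and the question was one of concentration-dependent transcript changes.

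Apoptosis through mitochondria is set by the BCL2 family. Survival members such as BCL-XL and MCL1 hold the pore-forming effectors BAX and BAK in check, and BH3-only members such as PUMA, NOXA and BIK relieve or bypass that restraint. Death receptors at the cell surface, FAS and the TRAIL receptor DR5, start a second route that runs through the adaptor FADD and initiator caspases. Both routes end in executioner caspases, among them caspase-6, which cleaves lamins. BBC3, PMAIP1, BAX, FAS and TNFRSF10B are textbook targets of p53.

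At 20 nM, 7 of the 9 genes were at least 2-fold higher than in vehicle, 1 was at least 2-fold lower and 1 was neither. The 7 were PMAIP1, MCL1, FAS, BBC3, BIK, BCL2L1 and TNFRSF10B, which include both survival genes. The lower gene was CASP6 and the remaining one BAX. At 10 nM, 4 of 9 were at least 2-fold higher (PMAIP1, FAS, MCL1 and BBC3), 0 were lower and 5 were neither. With all detected probes of a gene averaged the 10 nM count was 3, since MCL1 then stayed under 2-fold. Among all named genes that were detected, 6.41% passed the same threshold upwards and 3.24% downwards at 10 nM, and at 20 nM 14.7% and 16.6%. Over all detected probes, named or not, the shares were 4.98% and 2.77% at 10 nM, and 12.3% and 12.8% at 20 nM. The share of members that were higher exceeded both backgrounds at each dose, but the genes were chosen with these values known. Named probes, members included, had also passed a filter on difference from vehicle, which the set of all detected probes had not. Both bufalin comparisons use the same vehicle array.

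A signal is the linear intensity as deposited, which still holds a background. Its fitted mean was 113 with vehicle, 114 at the lower dose and 116 at the higher dose, and its standard deviation 7.95, 7.82 and 8.22. A probe was called detected on an array when its deposited detection p-value was below 0.01. Fold changes were taken after this background was removed, an offset of 16 was added and the arrays were quantile normalized, so they exceed the plain ratios of the signals for dim probes. Where only 1 array of a pair detected the probe, the fold is written as a bound ("at least"). Of the 16 probes, 11 were detected on all 3 arrays, 4 on 2 arrays and 1 on none. Of 10 luminal prostate markers 9 had named probes, 8 of them detected on all 3 arrays, with a summed signal of 7239, 9508 and 10452 on the vehicle, 10 nM and 20 nM arrays. The markers split, since 5 of the 9 read lower at 20 nM than with vehicle and 4 higher, and TMPRSS2 alone went from 1492 to 5800.1. None of 4 basal markers was among the named genes. Of 4 leukocyte markers, PTPRC and CD3E were not named, and HLA-DRA and CD14 had a summed signal of 392, 632 and 892. Of 4 stromal markers 3 were named, with sums of 1831, 2734 and 2474, and the part of these markers in the results below was not tested. In such bulk RNA, a change in the share of cells with a transcript and a change in its amount per cell cannot be told apart.

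Promoter sequence was available from RefSeq (GRCh38.p14) for 6 of the 9 genes, in 9 windows, of which the 250 bases before each annotated start were searched. BIK, MCL1 and TNFRSF10B had no entry. The search covered both strands for the AP-1 motif TGANTCA, the E-box CACGTG, the cyclic AMP response element TGACGTCA, and by name the p53 decamer and the NF-kappa-B decamer. The windows of BBC3 and BAX are shown because both genes were higher at both doses and are the members whose windows hold E-boxes, and a stretch of FAS because it holds the only p53 decamer found. Capitals mark the motif matches, which do not overlap one another, and sequences run 5′ to 3′ on the gene's strand.

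BBC3, chr19:47232668-47232917, minus strand: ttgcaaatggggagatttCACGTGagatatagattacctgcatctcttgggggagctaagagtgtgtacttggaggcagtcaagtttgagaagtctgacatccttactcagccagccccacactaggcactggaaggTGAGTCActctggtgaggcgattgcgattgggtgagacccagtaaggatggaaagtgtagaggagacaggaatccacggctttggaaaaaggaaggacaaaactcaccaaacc

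BAX, chr19:48954625-48954874, plus strand: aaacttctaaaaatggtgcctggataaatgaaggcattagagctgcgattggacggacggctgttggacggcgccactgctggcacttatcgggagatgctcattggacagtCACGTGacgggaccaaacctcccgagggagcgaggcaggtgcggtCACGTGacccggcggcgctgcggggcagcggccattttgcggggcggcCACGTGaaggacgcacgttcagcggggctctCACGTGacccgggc

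FAS, chr10:88991261-88991340, plus strand: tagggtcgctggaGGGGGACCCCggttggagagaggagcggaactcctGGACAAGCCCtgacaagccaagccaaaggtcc

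The BBC3 window holds 1 E-box (capitals CACGTG, from base -232 counted back from the start) and 1 AP-1 motif (TGAGTCA, from base -113). The BAX window holds 4 E-boxes, beginning at bases -138, -93, -45 and -14. An E-box occurs in 6.34% of the 35116 RefSeq windows of this length, and 4 or more in 0.0142%, which is 5 windows. The FAS stretch lies before the most downstream of 3 annotated starts, between bases -170 and -91, and holds an NF-kappa-B decamer followed by a p53 decamer. The p53 decamer occurs in 5.57% of all windows, the NF-kappa-B decamer in 5.21% and the AP-1 motif in 6.57%, and another FAS window holds an AP-1 motif. The cyclic AMP response element, found in 1.65% of windows, was in none of the 9. Neither the PMAIP1 window nor those of BCL2L1 and CASP6 held any of the 5 motifs. These matches are letters in a window and were not set against binding.

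Among the BH3-only genes, PMAIP1, which encodes NOXA, a protein that neutralises MCL1, had the largest difference from vehicle. Its brighter probe (ILMN_2098446) read 283 with vehicle, 1187 at 10 nM and 1281 at 20 nM. The 2 bufalin readings lay close together and far above vehicle. The fold change was 5.92 at 10 nM and 6.40 at 20 nM, and 1.08 between the doses. On the log2 scale, 95.7% of the 20 nM difference was already present at 10 nM. The same share had a median of 56.5% over the 1979 detected probes that were at least 2-fold higher at 20 nM, with quartiles of 42.3% and 70.9%.

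The dimmer PMAIP1 probe (ILMN_1689525) read 136, 266 and 391 on the vehicle, 10 nM and 20 nM arrays. It was not detected on the vehicle array, where its detection p-value was 0.013. By this probe PMAIP1 exceeded vehicle at least 4.01-fold at 10 nM and at least 7.36-fold at 20 nM, with a fold of 1.84 between the doses. The probes of PMAIP1 thus placed the gene on the same side of vehicle but differed in how far the doses stood apart, with log2 fold changes between doses of 0.11 and 0.88. That gap was wider than in 90.5% of the 1792 genes with several detected probes.

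BBC3 encodes PUMA, a BH3-only protein that binds all survival members. Its single probe (ILMN_1729645) read 151 with vehicle, 245 at 10 nM and 301 at 20 nM. The readings were in the order of the doses, and the vehicle reading was 38.2 above the fitted background. The fold change was 2.75 at 10 nM and 3.97 at 20 nM, while the plain signal ratios were 1.62 and 1.995. BBC3 stood at the 98.4th percentile of log2 fold changes of detected probes at 10 nM and at the 97.8th at 20 nM.

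BIK encodes a BH3-only protein of the endoplasmic reticulum. Its probe (ILMN_1770505) read 223, 325 and 526 on the vehicle, 10 nM and 20 nM arrays. Unlike that of the brighter PMAIP1 probe, the BIK signal was much farther from vehicle at 20 nM than at 10 nM. The dimmer PMAIP1 probe, with a fold of 1.84 between the doses, did not share that contrast. The fold change of BIK was 1.81 at 10 nM and 3.52 at 20 nM, with a 1.95-fold difference between the doses. At 10 nM, 47.1% of its 20 nM log2 difference was present.

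**Figure D1:**
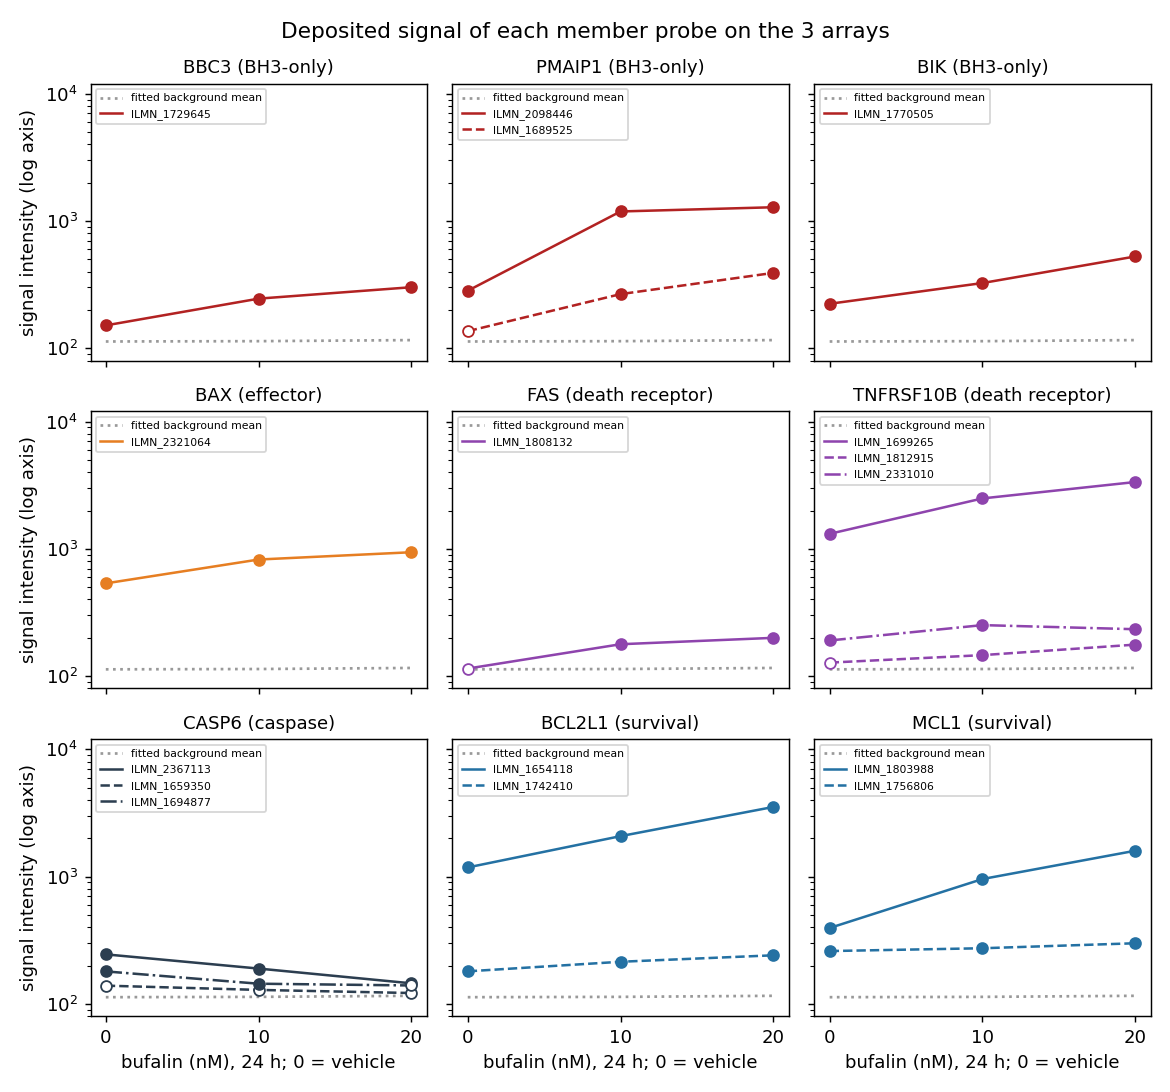
Deposited signal (log axis) of each of the 16 member probes against bufalin concentration in nM, with 0 for vehicle. Each point is 1 array, open points were not detected, line styles separate probes of a gene and the dotted grey line is the fitted background mean; PMAIP1 by its brighter probe is almost level between doses, MCL1 by its dimmer probe is almost level throughout, and all CASP6 probes lie near the background line at 20 nM.

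BAX, the effector that forms pores in the outer mitochondrial membrane, was higher at both doses without reaching 2-fold. Its probe (ILMN_2321064) read 535 with vehicle, 824 at 10 nM and 939.8 at 20 nM. Both bufalin readings were above vehicle and the doses lay close together. BAX exceeded vehicle 1.62-fold at 10 nM and 1.89-fold at 20 nM, with a fold of 1.16 between the doses. With log2 fold changes of 0.70 and 0.92, it stood at the 89.3rd and 85.8th percentiles of detected probes.

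Both death receptor genes were higher with bufalin, from very different starting signals. TNFRSF10B encodes DR5, a receptor for the ligand TRAIL, and its brightest probe (ILMN_1699265) read 1311, 2488 and 3348 on the vehicle, 10 nM and 20 nM arrays. This placed it at the 84.9th percentile of detected signals on the vehicle array and at the 93.1st at 20 nM. This probe put TNFRSF10B 1.94-fold above vehicle at 10 nM and 2.56-fold above it at 20 nM. FAS encodes the receptor for FAS ligand, and its probe (ILMN_1808132) read 115, 178 and 199.7. The vehicle reading was at background, with a detection p-value of 0.371, and both bufalin readings were detected. At its bounds FAS exceeded vehicle at least 1.89-fold at 10 nM and at least 2.56-fold at 20 nM, so its count as at least 2-fold higher at 10 nM rests on an undetected vehicle reading. The bounds hold in the main setting only. Without background correction its log2 fold change was 0.60 at 10 nM and 0.82 at 20 nM, and it passed 2-fold at neither dose.

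The other TNFRSF10B probes read lower and differed less or less clearly from vehicle. ILMN_2331010, annotated to a different transcript of the gene, read 190.3, 251 and 233, which was 1.65-fold above vehicle at 10 nM and 1.53-fold at 20 nM. It was the 1 detected member probe with a lower value at 20 nM than at 10 nM in a gene that was higher than vehicle, with a log2 difference of -0.11. ILMN_1812915 read 128, 146 and 177 and was not detected on the vehicle array. That probe gave bounds of at least 1.16-fold at 10 nM and at least 1.98-fold at 20 nM, both above vehicle. The range of the 3 probes at 20 nM, 0.79 on the log2 scale, was wider than in 82.1% of genes with several probes.

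CASP6, the gene of the executioner caspase-6, was lower with bufalin and was the only member gene that was. Its brightest probe (ILMN_2367113) read 245 with vehicle, 189.6 at 10 nM and 145 at 20 nM. The readings stepped down with dose, and the 20 nM reading was 29.4 above the fitted background. CASP6 was 1.64-fold lower at 10 nM, 3.08-fold lower at 20 nM and 1.88-fold lower at 20 nM than at 10 nM. Its log2 fold change of -1.62 at 20 nM was at the 3.44th percentile of detected probes.

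The remaining CASP6 probes, both annotated to a different transcript from the brightest, were near background with bufalin. With vehicle, ILMN_1694877 stood 67.1 above the fitted background. ILMN_1694877 read 180.1, 144 and 139.6 and was not detected at 20 nM. CASP6 was 1.77-fold lower at 10 nM and at least 1.96-fold lower at 20 nM by this probe. ILMN_1659350 read 139, 129 and 122 and was detected on none of the arrays, so it has no fold change here. All 3 probes read lowest on the 20 nM array. For dim probes such as these the threshold call depends on the background step: without it, the log2 fold change of the brightest CASP6 probe at 20 nM was -0.75, and 0 members were at least 2-fold lower.

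The survival genes were higher as well, and by their brightest probes they stood within the range of the pro-death genes. BCL2L1 encodes BCL-XL, and its brighter probe (ILMN_1654118) read 1182, 2082 and 3529.8 on the vehicle, 10 nM and 20 nM arrays. The readings were in the order of the doses. BCL2L1 exceeded vehicle 1.79-fold at 10 nM and 3.03-fold at 20 nM, with a 1.69-fold difference between the doses. Its dimmer probe (ILMN_1742410), annotated to the same transcript, read 180.3, 214 and 241, or 1.41-fold and 1.81-fold above vehicle. Both BCL2L1 probes were detected on all 3 arrays, and only the brighter one passed 2-fold.

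MCL1 encodes a short-lived survival protein and its probes disagreed more widely in the differences from vehicle than those of any other member in the main setting. Between the doses the gaps of TNFRSF10B, PMAIP1 and CASP6 were wider. Its brighter probe (ILMN_1803988) read 395, 958 and 1598, which was 2.92-fold above vehicle at 10 nM and 5.04-fold at 20 nM. Its dimmer probe (ILMN_1756806) read 260.2, 274 and 299.6, or 1.07-fold and 1.28-fold above vehicle. The annotation gives the same transcript for both probes, and both were detected on all 3 arrays. Their log2 fold changes at 20 nM, 2.33 and 0.36, were 1.97 apart, a wider range than in 98.5% of the 1858 named genes with several detected probes. At 10 nM they were 1.44 apart, wider than in 98.9% of 1797 genes. Among such genes, probes of the same gene had a pooled standard deviation of 0.31 at 10 nM and 0.44 at 20 nM.

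Set side by side, pro-death members other than CASP6 and survival members lay on the same side of vehicle. The 6 pro-death genes other than CASP6 had log2 fold changes from 0.92 to 2.68 at 20 nM, with a median of 1.90, and BCL2L1 at 1.60 and MCL1 at 2.33 lay inside that range. With CASP6 included, the pro-death median over 7 genes was 0.95 at 10 nM and 1.82 at 20 nM. The survival median over 2 genes was 1.19 and 1.97. With all detected probes of a gene averaged, the survival median was 0.75 and 1.29, because the dimmer probes then counted. The median over all detected named genes was -0.04 at 10 nM and -0.10 at 20 nM.

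**Figure D2:**
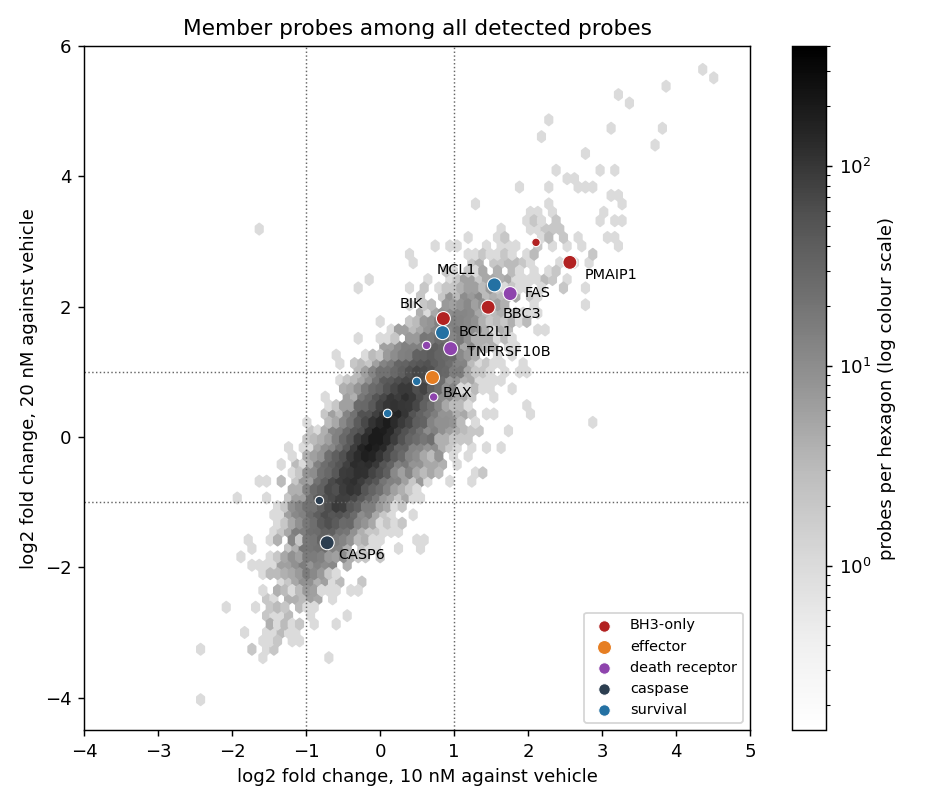
Log2 fold change against vehicle at 10 nM (horizontal) and 20 nM (vertical) for member probes, coloured by role, over all detected probes in grey hexagons. Large points are the brightest probe of each gene, small points the other probes, dotted lines mark 2-fold; PMAIP1 stands farthest right at 2.56 and CASP6 is the 1 named point below 0. Both axes use the same vehicle array.

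Between the doses, 0 of the 9 members differed by at least 2-fold in either direction, against 2.72% of detected named genes higher and 4.82% lower. Over all detected probes the shares were 2.63% and 3.59%. Members ranged from -0.91 for CASP6 to 0.96 for BIK on the log2 scale, and under median scaling CASP6 stood at -1.03 and BIK at 0.90. By their brighter probes the survival genes stood at 0.76 for BCL2L1 and 0.79 for MCL1, above the median of 0.40 over the 7 pro-death genes. Their dimmer probes stood at 0.36 and 0.26, below that median. With all detected probes of a gene averaged, the survival median was 0.54 and the pro-death median 0.44. By brightest probes the order was BIK, MCL1, BCL2L1, BBC3, FAS, TNFRSF10B, BAX, PMAIP1 and CASP6. With 1 array per dose no neighbours in that order can be told apart. It also depends on the probe, since the dimmer PMAIP1 probe stood at 0.88.

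All detected member probes kept their sign under each processing setting tried. That was 15 of 15 probes against vehicle at 10 nM, 15 of 15 at 20 nM and 15 of 15 between the doses. This count was largely fixed in advance, since the settings reprocess the same arrays and include the main setting. Detection below 0.05 and the bounds could not reverse a sign, so only changes of background or scaling could. Whether the directions would recur in other cultures was not tested. The size of the fold change did not hold for dim probes. For FAS the log2 fold change at 20 nM ranged from 0.80 to 2.20 over the settings, and for BBC3 from 0.997 to 1.99. The brightest probes of 2 other members varied little, from 1.52 to 1.66 for BCL2L1 and from 1.29 to 1.42 for TNFRSF10B.

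**Figure D3:**
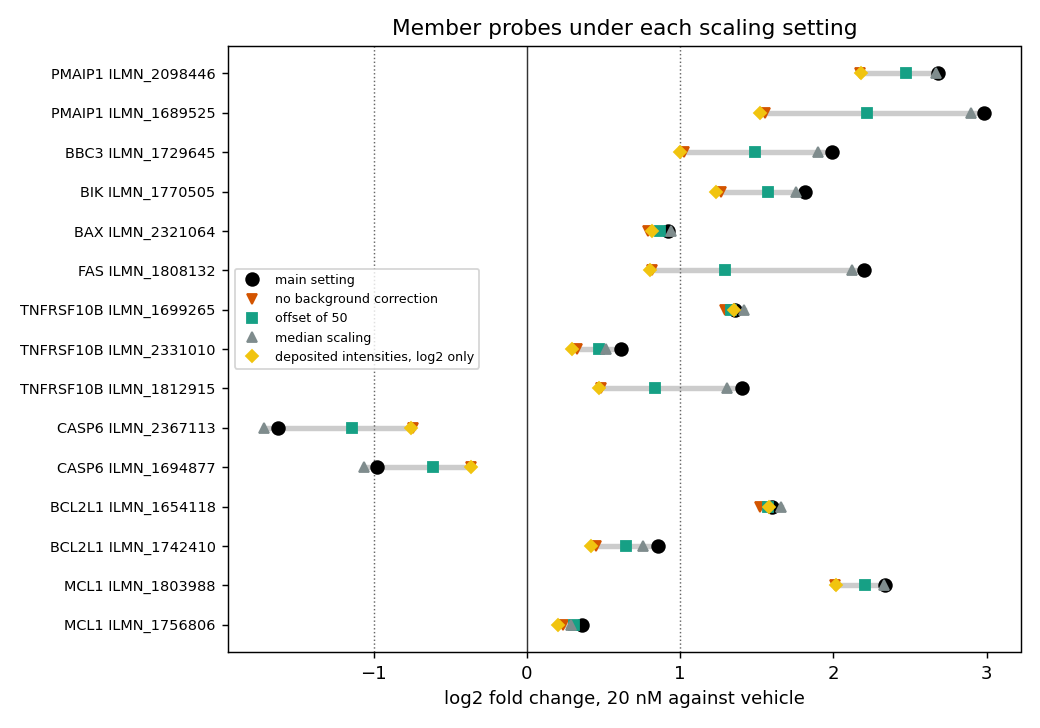
Log2 fold change at 20 nM against vehicle (horizontal axis) of the 15 detected member probes under the main setting and 4 other ways of correcting or scaling the same arrays. Grey bars join the lowest and highest of the 5 values, and dotted lines mark 2-fold; the bars are short for the bright BCL2L1 probe and long for FAS and the dimmer PMAIP1 probe, and no bar crosses 0.

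Other genes of the pathway were taken from 8 lists, with the 9 members left out. Of 66 such genes 40 were named, and 37 were detected at 20 nM, where 9 passed 2-fold upwards, 6 downwards and 22 did not. That is 24.3% higher and 16.2% lower, against the 14.7% and 16.6% of all detected named genes. The median log2 fold change was 0.32. At 10 nM the median was 0.17, and of 37 genes 4 passed 2-fold upwards and 1 downwards, or 10.8% and 2.70% against 6.41% and 3.24% of all detected named genes. Without background correction the 9 and 6 numbered 4 and 2, and at the bounds of dim probes 7 were higher.

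Of 7 other detected genes for death receptors, ligands and adaptors, 2 receptor genes passed 2-fold upwards at 20 nM and 1 adaptor gene downwards. That is 28.6% and 14.3%, against 14.7% and 16.6% of all detected named genes. The median of the 7 was 0.49. TNFRSF10D, which encodes a TRAIL decoy receptor with no working death domain, read 139, 224 and 423 on the vehicle, 10 nM and 20 nM arrays. The vehicle reading was not called detected, and the bounds were at least 3.03-fold for 10 nM and at least 8.08-fold for 20 nM, both higher. These bounds hold in the main setting only, and the lowest log2 value over the scalings at 20 nM was 1.61. TNFRSF10A, the gene of the other TRAIL death receptor DR4, read 263, 329.7 and 549, or 1.39-fold and 2.78-fold above vehicle. All 3 TRAIL receptor genes with a named probe, the decoy and both death receptors, thus read highest on the 20 nM array by their brightest probe. FADD, the adaptor that death receptors share, read 839.7, 568 and 451 and was 2.10-fold lower at 20 nM. Its weakest log2 value over the scalings was -0.90, under 2-fold. TRADD, the adaptor of the TNF receptor, read 232, 203 and 163, a log2 fold change of -0.999 that came just short of 2-fold lower. CFLAR, which encodes the caspase-8 inhibitor FLIP, read 199.8, 309 and 277 and was 2.08-fold higher at 10 nM and 1.82-fold at 20 nM.

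The 6 detected caspase and apoptosome genes other than CASP6 had values below 0, mostly within 2-fold. Their median at 20 nM was -0.64. The 2-fold threshold was passed downwards by 1 of these genes, or 16.7% against 16.6% of all detected named genes, and upwards by 0. That gene was CASP2, an initiator caspase gene, which read 1143, 957 and 582 by its brighter probe and was 2.17-fold lower at 20 nM. The weakest log2 value of that probe over the scalings was -0.97, just under 2-fold. CYCS, the cytochrome c gene, read 311, 256 and 227, with a log2 fold change of -0.68. CASP9, the caspase of the apoptosome, stood at -0.30 at 20 nM by a probe near background. CASP8, the initiator at death receptors, had a named probe that was detected on none of the arrays. It read 115, 137 and 138, with log2 fold changes of 0.74 at 10 nM and 0.76 at 20 nM. At a detection p-value below 0.05 it would count as detected on both bufalin arrays, so the shared direction of the caspase genes depends on the cut.

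Genes for targets of executioner caspases, counted together with the nuclease gene DFFB, split. At 20 nM, 8 were detected: 4 lay at least 2-fold below vehicle, 2 at least 2-fold above it and 2 between. However, 1 of those above, GSN, is under 2-fold at its bound. The shares were 50% lower and 25% higher, against 16.6% and 14.7% of all detected named genes. DFFB, which encodes the apoptotic nuclease CAD, read 317, 190.4 and 153 and was 2.43-fold lower at 10 nM and 3.89-fold at 20 nM. DFFA, the gene of its inhibitor ICAD, read 440.3, 296 and 240.1 and was 2.35-fold lower at 20 nM. Nuclease and inhibitor were therefore lower together. The lamin gene LMNB1 read 661, 442 and 250.3 and was 3.65-fold lower, and PARP1, a DNA strand break sensor gene, was 2.004-fold lower. LMNA, the gene of the lamin that caspase-6 cleaves, stood at 0.32 by its brighter probe and 1.22 by the other. ROCK1, a kinase behind membrane blebbing, was 2.09-fold higher, and GSN, an actin-severing protein gene not detected on the vehicle array, was at least 1.59-fold higher at its bound.

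Among 6 detected p53-linked death genes the median was 1.11 at 20 nM. At least 2-fold differences were upwards in 3, or 50%, and downwards in 0, against 14.7% and 16.6% of all detected named genes. TP53I3, a quinone oxidoreductase gene, read 141, 199 and 276 and was 2.28-fold and 4.22-fold higher at 10 and 20 nM. The brighter probe of TP53INP1, a p53 cofactor gene, put it 2.92-fold above vehicle at 20 nM, and PIDD1, which assembles the caspase-2 platform, 2.59-fold. The lowest log2 values over the scalings at 20 nM were 0.96 for TP53I3 and 0.69 for PIDD1, both under 2-fold, and 1.41 for TP53INP1. PERP stood at 0.85, EI24 at 0.61 and STEAP3 at 0.39.

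Within the BCL2 family, BCL2L2, the other survival gene with a detected probe, read 654, 825 and 846, with a log2 fold change of 0.40 at 20 nM. The effector genes BAK1 and BOK stood at 0.60 and 0.07, and BOK changed sign between scalings, down to -0.04. Of 4 other BH3-only genes, BMF was at least 1.27-fold higher at its bound and counted as 2-fold higher only by an undetected vehicle reading, while BAD (-0.33), BNIP3 (-0.58) and BNIP3L (0.26) were within 2-fold. BCL2 had a named probe that was detected on none of the arrays. Of the inhibitors of apoptosis, BIRC2, the cIAP1 gene, read 416, 707 and 1145 and was 3.29-fold higher at 20 nM. XIAP, the direct caspase inhibitor, stood at 0.85, and BIRC5, the survivin gene, at -0.86.

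**Figure D4:**
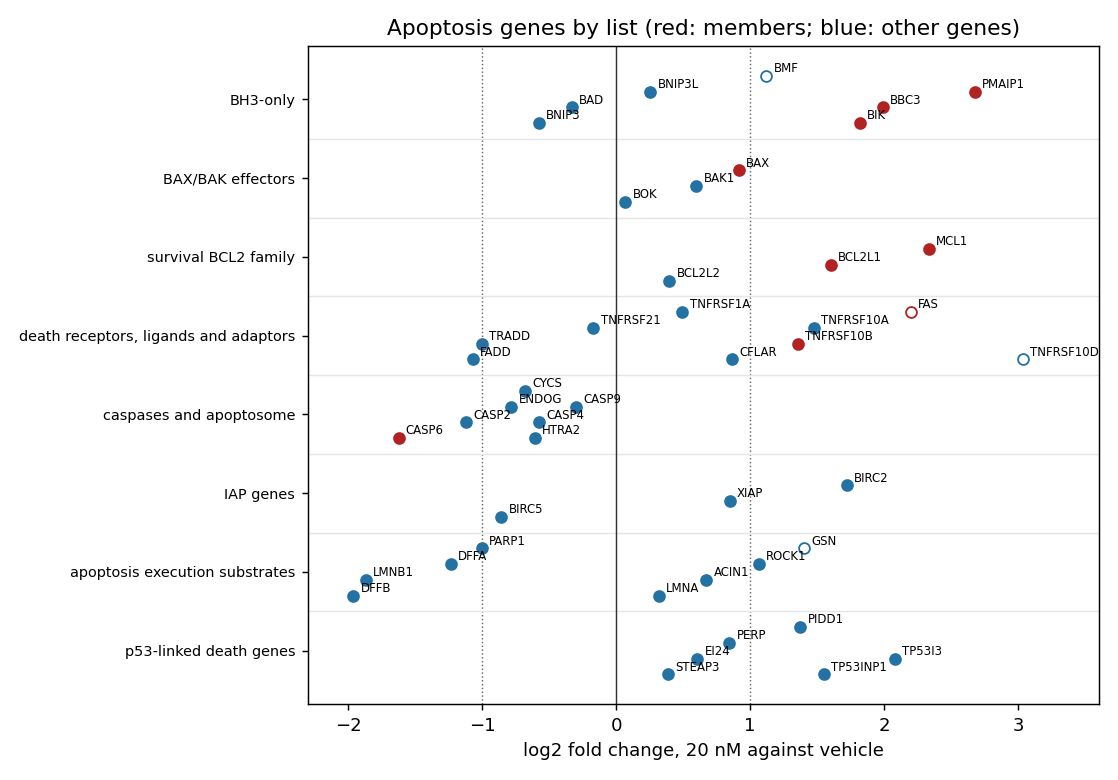
Log2 fold change at 20 nM against vehicle (horizontal axis) of every detected gene of the 8 apoptosis lists (rows), members in red and other genes in blue, with 1 point per gene by its brightest detected probe. Open points were detected on 1 of the 2 arrays only and dotted lines mark 2-fold. The detected caspase genes all lie left of 0 and the detected p53-linked death genes all lie right of it. These sides were the same under all 5 scalings of the same arrays, the main one included. CASP8, detected on none of the arrays at the cut of 0.01, is not shown. At the alternative cut of 0.05 it would be detected with bufalin and lie right of 0, at 0.76.

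The genes nearest to 3 members in their pair of log2 fold changes were sought among 7171 named genes detected on all 3 arrays, with the Euclidean distance over the 2 doses as the measure. Nearest to PMAIP1 were the amino acid transporter gene SLC38A2 (distance 0.10, values 2.47 and 2.71), TXNIP (0.25) and ACTA1 (0.26). SLC38A2 read 1229, 6444 and 8091 and so also had most of its difference at 10 nM. Nearest to BBC3 were RAB32, MXD1 and LIMK2, each at a distance of 0.06. Nearest to CASP6 were PCYOX1L, the mismatch repair gene MSH6 and the purine synthesis gene ATIC, at 0.02, 0.02 and 0.03. A match over 2 doses that share a vehicle array is loose, since many genes lie near BBC3 and CASP6 in the plot of the doses against each other.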

How the data were processed

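Illumina bead arrays, 1 per condition, measured transcript levels with vehicle and with bufalin at 10 and 20 nM. The deposited table gives a signal intensity and a detection p-value for 47323 probes on each array, not normalized per the file headers. Per the submitters' processing notes the software was BeadStudio 3.0; background subtraction and genome build are not given in the sources used here. A second deposited table holds 13753 probes with exactly the same intensity values. In 13752 of them the detection p-value was below 0.05 on at least 2 arrays and the intensity at least 10% from vehicle at a dose. Gene names existed only for this filtered set (10952 probes with 1 symbol), so other probes of the members may be unnamed. Probes within 10% of vehicle at both doses had no name, apart from at most 1. Counts of members and list genes, shares of named genes and same-gene probe gaps thus rest on probes selected partly for differing from vehicle. The FAS probe, at background with vehicle, could be named only because both bufalin arrays detected it.

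The normexp model was fitted from detection p-values (limma 3.58.1, R 4.3.3), with an offset of 16, quantile normalization over all probes and log2. The brightest detected probe represented a gene, and the size threshold was 2-fold. Bounds set the bright value against the higher of the dim value and the lowest detected value on that array. Background correction and normalization in the main setting were tested on simulated data with changes planted in bright probes only. Changes in dim probes, the choice of probe for a gene and the bounds were not tested in this way.

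Groups came from the treatment labels, and 3 comparisons were made with no test. Precision is limited by the number of arrays: 14664, 14735 and 14612 probes were detected on the vehicle, 10 nM and 20 nM arrays. All 9 members are named, as are list genes detected and at least 2-fold from vehicle, with other list genes chosen after their values were seen. Likeness took 3 genes for each of PMAIP1, BBC3 and CASP6. Members and lists were chosen with earlier results of these data known. Alternatives were no background correction, an offset of 50, median scaling, log2 of the deposited values, detection below 0.05, averaged probes, bounds and a 1.5-fold threshold.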

Additional observations from a re-analysis of the deposited data

How the results depend on the processing

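Without background correction and in the deposited values on the log2 scale, 2 members were at least 2-fold higher at 10 nM in place of 4, PMAIP1 and MCL1, and 0 were lower at 20 nM in place of 1. Members at least 2-fold higher at 20 nM numbered 6 and 5 under these settings, against 7. Under the same 2 settings, other apoptosis genes numbered 1 higher and 0 lower at 10 nM (4 and 1 in the main setting), 4 higher and 2 lower at 20 nM (9 and 6), and 0 and 0 between the doses (2 and 1). The pro-death median was 0.60 and 0.64 at 10 nM under these settings, against 0.95, and 1.02 and 0.997 at 20 nM, against 1.82. With an offset of 50 the pro-death median at 20 nM was 1.33, other genes higher at 10 nM numbered 2, and between the doses 1 was higher and 0 lower. Under median scaling, 1 member (CASP6) was lower between the doses and 1 other gene higher. With bounds, the pro-death median at 20 nM was 1.36. With probes averaged, the survival median was 0.75 at 10 nM and 1.29 at 20 nM. At 1.5-fold, 8 members were higher and 1 lower at 10 nM, and 3 higher and 1 lower between the doses. Other genes at 1.5-fold numbered 10 higher and 7 lower at 10 nM, 15 and 11 at 20 nM, and 7 and 5 between the doses. Smaller folds without background correction follow from its construction, since the background then adds to both readings, and the other causes were not tested. Of 180 probe values under the 4 settings of background or scaling, 133 moved by less than the pooled spread between probes of a gene and 47 moved more. No paired analysis was possible because each condition has 1 array. Signal over background limits CASP6, FAS, BBC3 and the dimmer PMAIP1 and TNFRSF10B probes.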
